A study of Rattus norvegicus with 3 samples.

Results

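The genes described here encode the scaffold around kidney cells and the receptors that hold cells to it: collagen and laminin chains, nidogens, fibronectin, tenascin C, small proteoglycans, fibrillins, fibulins and integrin subunits. They were chosen by gene symbol, taking every symbol on the array that begins as a collagen, laminin, integrin, fibrillin or fibulin symbol does, together with Fn1, Tnc, Dcn, Bgn, Lum, Nid1 and Nid2, and leaving out Itga2b. This gave 88 of 14218 genes with a symbol of their own, covered by 126 probe sets (a probe set is a group of short probes for a transcript). The rule itself used no expression value, but it was set with earlier results of these data known. The symbols also took in 4 genes that are not integrin subunits: Itgb1bp1, Itgb1bp2, Itgb3bp and Itgbl1.

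Expression was read in kidneys from male Wistar rats of 370 to 508 g that stood for donors after cardiac death. After 20 min without blood flow, the left kidney was stored cold for 17 ± 0.7 h in UW preservation fluid, and was next fed from the femoral artery of an anaesthetised recipient rat for 5 h 43 min ± 21 min (the labels do not say which kind of error these are). Recipients were given heparin at 100 U/ml/h, the peptide named peptide 2 at 0.5 mg/ml, modelled on the part of the chemokine CCL5 that binds heparin, or saline at 1 ml/h as the control, with 7 recipients a group. Heparin was given to no other group, since it was not used to keep blood from clotting. RNA of 3 kidneys of each group, picked for the quality of their RNA, was mixed in equal amounts and put on 1 array per group. All groups therefore share the warm ischaemia, the cold storage and the reperfusion, and the labels give no kidney that was never stored or reperfused. The mix hides the spread between animals, so no difference below has a replicate check, no test was made, and "higher" and "lower" describe these 3 arrays.

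The extracellular matrix of the kidney has a sheet-like part, the basement membranes under tubule cells, endothelium and podocytes, built from type IV collagen and laminin networks that nidogens tie together. It also has an interstitial part, where type I, III and V collagens form fibrils that decorin and other small proteoglycans coat, with type VI collagen filaments, fibrillin microfibrils and fibronectin between them. Integrins are receptors made of an alpha and a beta subunit, which bind these proteins outside the cell and the actin cytoskeleton inside it. Leukocytes carry integrins of their own for binding endothelium and complement fragments. After injury, fibroblasts and pericytes make fibrillar collagen, fibronectin and tenascin C.

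Values are log2 expression values made with GCRMA. A gene was counted as measured when its value was no lower than the middle value of the whole array on each array compared (4.16 on the heparin, 4.14 on the peptide and 4.14 on the control array). By this rule 55 of the 88 genes were measured, the same 55 on all 3 arrays, and 33 lay below the median on all 3. Those 33 are 21 collagen chains, 5 integrin subunits (Itga7, Itga8, Itga9, Itga11 and Itgad), Lama1, Lum, Fbln1, Fbln2, Fbn2, Itgb1bp2 and Itgbl1. Their values are too low to compare, and 15 of them lay within 0.01 of the array's lowest value on all 3 arrays. Of the 33, Col8a1 was the gene whose values differed by 0.2 or more, at 3.36 in heparin, 2.95 in peptide and 2.95 in control. No gene passed from below the median on an array to clearly above it on another, so no fold had to be given as a bound. Of the 55 measured genes, 54.5% had at least 2 identical values over the arrays and 21.8% had 3, against 54.3% and 22.4% of 9231 genes measured on all 3 arrays. An exact tie can come from the way probe values are summarised and does not show equal abundance.

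The kidney origin of the RNA was plain on every array: 8 of 8 proximal tubule genes, 5 of 5 thick limb and distal tubule genes and 5 of 5 collecting duct genes were measured. In RNA mixed from whole pieces of kidney, fewer cells of a type and less RNA per cell cannot be told apart. The control probe sets for beta-actin differed more between the 3' end and the 5' end on the heparin array (2.95) than on the peptide (2.34) and control (2.33) arrays. For GAPDH this difference was 0.32 in heparin, 0.37 in peptide and 0.36 in control, and for hexokinase it was 2.18, 2.28 and 2.18. The part of RNA length in the differences below was not tested.

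**Figure D1:**
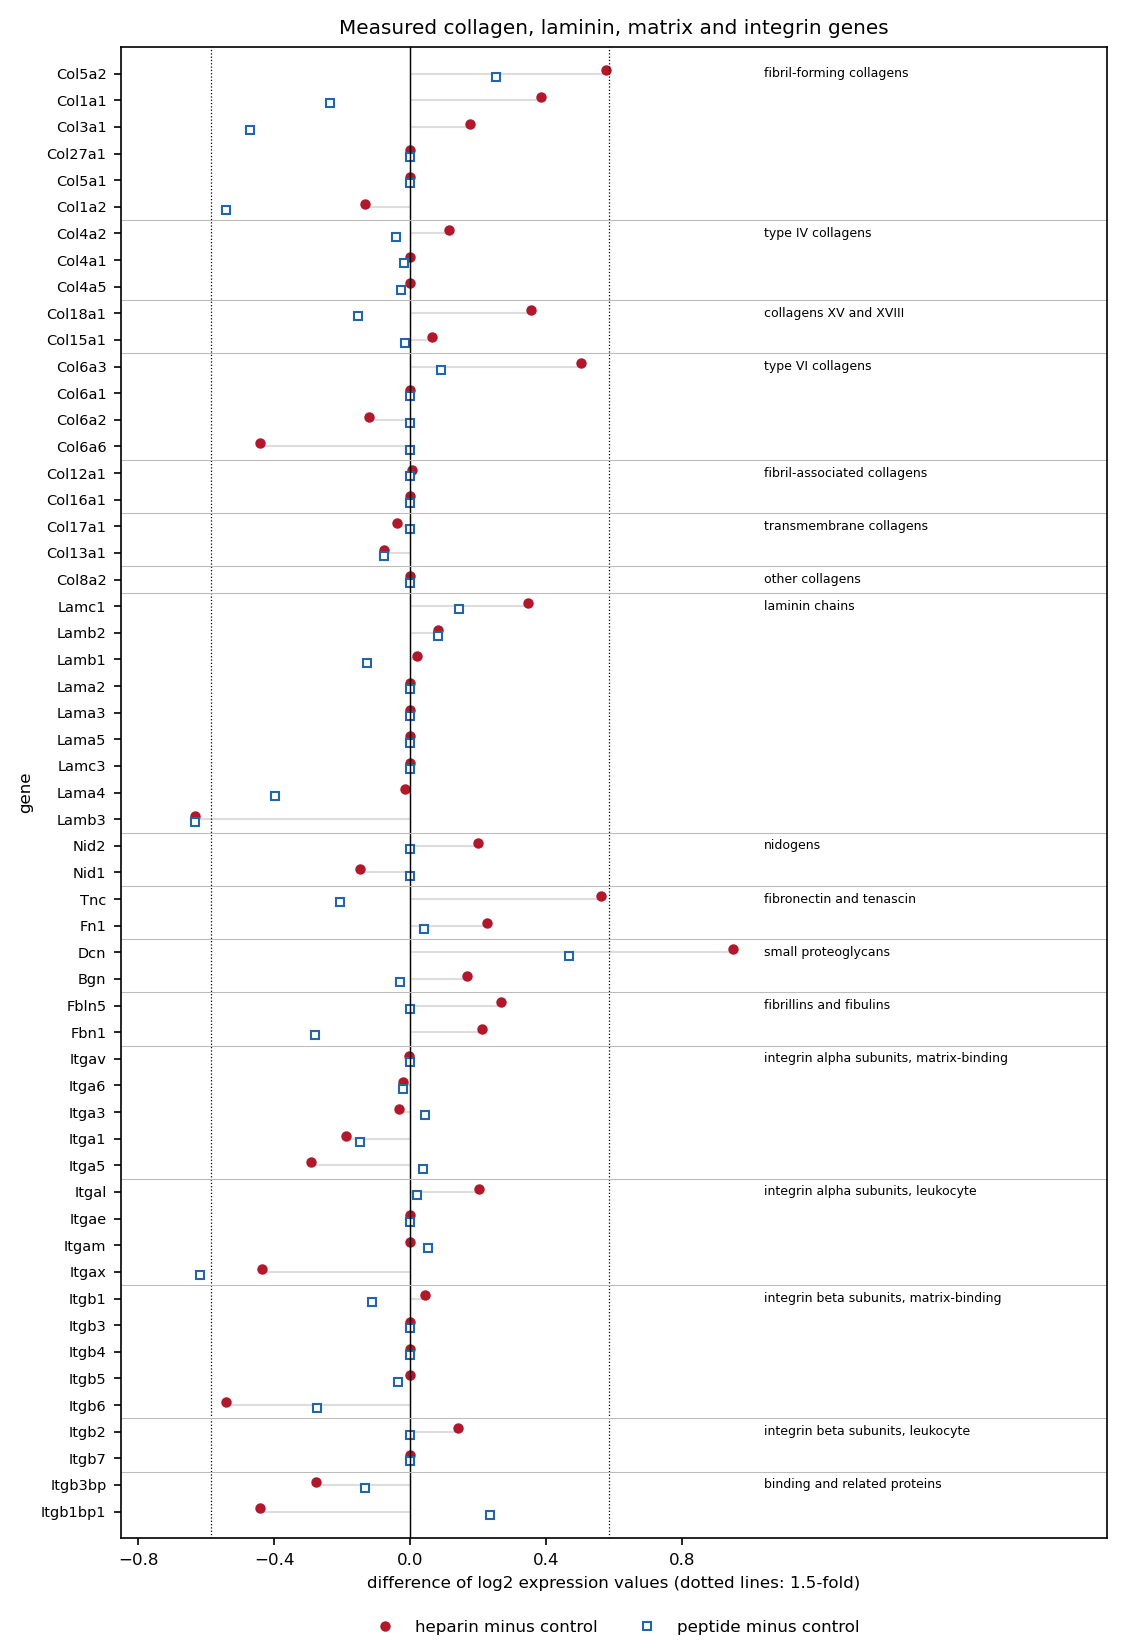
Differences of log2 expression values for the 55 measured genes (rows, grouped by kind), with filled circles for heparin minus control and open squares for peptide minus control. Dotted lines mark 1.5-fold. Decorin (Dcn) lies farthest to the right at 0.95 in heparin, laminin Lamb3 farthest to the left at -0.63 with both treatments, and many genes sit exactly on 0.

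Among the wider differences, decorin and tenascin C read highest in the heparin pool, where fibrillar collagens read higher than in the peptide pool. Itgb1bp1 read lowest in the heparin pool, and Lamb3, Itgax and Itgb6 read lower in both treated pools than in control. Most of the 55 genes differed by little. Against control, 1 of 55 measured genes was at least 1.5-fold higher in heparin (Dcn), beside 3.04% of all 9236 genes measured in that comparison, and 1 was at least 1.5-fold lower (Lamb3), beside 3.37%. After quantile normalization of the arrays these counts were 3 higher and 0 lower. In peptide 0 of 55 were at least 1.5-fold higher, beside 2.11% of 9268 genes, and 2 were lower (Lamb3 and Itgax), beside 0.917%. Between the treatments, 3 of 55 were at least 1.5-fold higher in heparin than in peptide (Tnc, Col3a1 and Col1a1), beside 1.62% of 9240 genes, and 1 was lower (Itgb1bp1), beside 4.57%. With 32 added before log2, which shrinks differences of low values, 0 were lower in either treatment against control (Lamb3 at -0.52 with both, Itgax at -0.57 in peptide), and 1 was higher in heparin than in peptide. With probe sets averaged per gene, Col1a1 lost its call between the treatments, at 0.31, and Col5a2 gained one in heparin against control, at 0.84. At 2-fold, with 1 probe set per gene, the count was 0 of 55 in each direction of all 3 comparisons. All genes gave 1.06% higher and 0.747% lower in heparin against control. They gave 0.723% and 0.119% in peptide against control, and 0.281% and 0.844% in heparin against peptide. A second probe set of Col5a2 did pass 2-fold, at 1.10 in heparin against control. The median difference was 0.00 for the 55 genes and for all measured genes in each comparison. Both treatments were set against the same control array, so its own chance deviations enter both comparisons.

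At 0.2 on the log2 scale, a threshold chosen after the values were seen, 12 of 55 were higher and 7 lower in heparin than in control, where all genes gave 10.2% and 19%. Peptide against control gave 3 higher and 9 lower, where all genes gave 11.4% and 7.5%, and heparin against peptide 13 and 4, where all genes gave 10% and 21.4%. A further measure was also chosen after the values were seen: an array stood apart for a gene when it lay at least 0.2 on the log2 scale above, or below, both other arrays. Heparin stood above both others for 10 of 55 measured genes (18.2%), against 6.66% of all 9231 genes, and below both for 4 (7.27%), against 14.7%. Peptide stood below both others for 6 of 55 (10.9%), against 2.92% of all genes, and above both for 1 (1.82%), against 6.8%. Control stood above both for 3 of 55 (5.45%, all genes 4.07%) and below both for 2 (3.64%, all genes 4.44%). Over 7 other settings the share with heparin on top ran from 12.7% to 27.3% for these genes and from 5.2% to 8.62% for all genes. The share with peptide at the bottom ran from 5.45% to 12.7% for these genes and from 2.29% to 3.76% for all genes. The 10 genes with heparin on top were Col1a1, Col5a2, Col6a3, Col18a1, Dcn, Tnc, Fbn1, Fbln5, Lamc1 and Nid2. Of these, Nid2 (0.20 over both), Lamc1 (0.20 over peptide) and Fbn1 (0.21 over control) only just passed. Second probe sets of Col18a1 and Lamc1 read lower in heparin than in control. The 6 with peptide at the bottom were Col1a1, Col1a2, Col3a1, Fbn1, Tnc and Lama4.

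**Figure D2:**
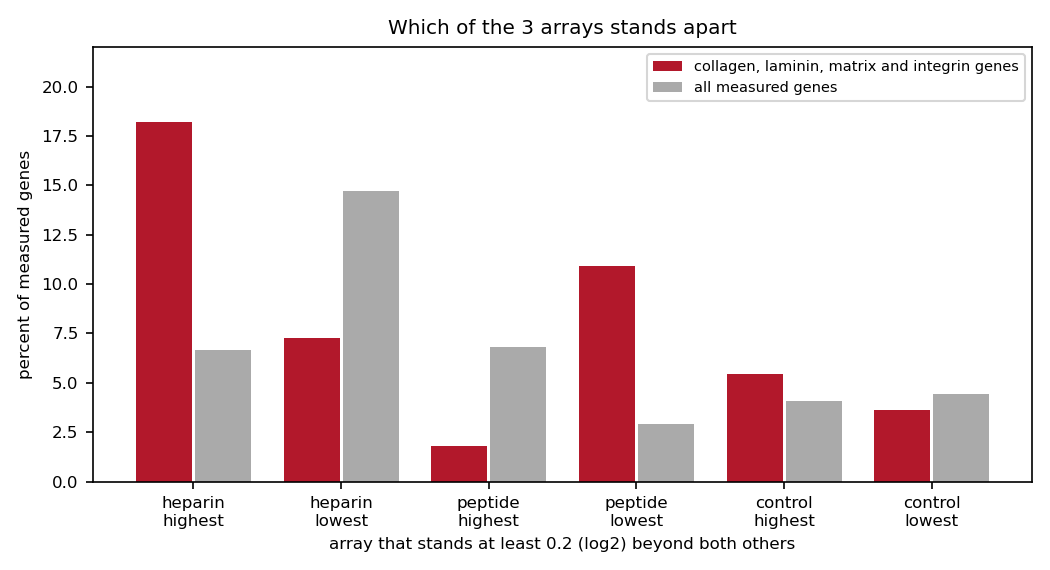
Percent of measured genes for which the named array stood at least 0.2 (log2) above (highest) or below (lowest) both other arrays, in red for the 55 collagen, laminin, matrix and integrin genes and in grey for all 9231 measured genes. The heparin array was highest for 18.2% of the 55 genes against 6.66% of all genes, and the peptide array lowest for 10.9% against 2.92%.

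Promoter sequences are shown for 4 genes whose values differed by more than 0.5 over the arrays: Tnc and Col5a2, highest in heparin, and Lamb3 and Itgax, highest in control. They run from 250 bases before to 50 bases after the gene start in RefSeq, build GRCr8, 5' to 3', with motif matches in capitals.
Tnc, chr5:82476082-82476381, minus strand: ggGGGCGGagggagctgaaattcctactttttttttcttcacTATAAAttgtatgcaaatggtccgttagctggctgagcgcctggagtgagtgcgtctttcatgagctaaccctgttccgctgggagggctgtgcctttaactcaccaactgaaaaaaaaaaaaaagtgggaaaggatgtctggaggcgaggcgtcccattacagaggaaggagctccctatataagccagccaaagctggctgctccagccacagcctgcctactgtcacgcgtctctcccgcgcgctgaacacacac
Col5a2, chr9:55090102-55090401, minus strand: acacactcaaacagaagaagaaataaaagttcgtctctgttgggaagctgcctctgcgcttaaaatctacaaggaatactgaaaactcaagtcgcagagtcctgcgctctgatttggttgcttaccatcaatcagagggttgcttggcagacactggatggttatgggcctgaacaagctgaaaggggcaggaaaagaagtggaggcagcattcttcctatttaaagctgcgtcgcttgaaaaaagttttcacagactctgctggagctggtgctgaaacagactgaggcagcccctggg
Lamb3, chr13:107362303-107362602, plus strand: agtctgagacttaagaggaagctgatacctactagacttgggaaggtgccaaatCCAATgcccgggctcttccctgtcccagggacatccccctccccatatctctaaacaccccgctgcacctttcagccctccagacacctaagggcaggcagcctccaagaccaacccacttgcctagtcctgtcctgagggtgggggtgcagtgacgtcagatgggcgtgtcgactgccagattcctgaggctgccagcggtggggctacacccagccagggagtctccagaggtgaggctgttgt
Itgax, chr1:192149799-192150098, plus strand: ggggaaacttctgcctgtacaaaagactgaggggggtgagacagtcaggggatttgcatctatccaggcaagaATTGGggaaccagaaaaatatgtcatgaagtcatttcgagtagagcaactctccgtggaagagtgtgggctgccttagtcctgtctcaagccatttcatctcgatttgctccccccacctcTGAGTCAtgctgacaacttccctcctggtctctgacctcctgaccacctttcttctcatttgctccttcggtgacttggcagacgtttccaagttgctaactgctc
Of the 88 genes, 66 had such a sequence, 41 of them measured. Motifs were searched on both strands: the TATA box as TATAAA, the AP-1 motif as TGANTCA, the CCAAT box by the letters in its name, the GC box as GGGCGG, and the core of the interferon response element. None of these contains another. Tnc held GGGCGG at position -248 and TATAAA at -208, counted from the gene start, Lamb3 held CCAAT at -196, and Itgax held CCAAT on the other strand at -177 and TGANTCA at -56. Col5a2 held none of the 5. TGANTCA occurred in 3 of the 66 promoters (4.55%) and in 7.33% of 33469 promoters, and the interferon response core in 2 (3.03%) against 3.92%. GGGCGG was in 36 of the 66 (54.5%) against 33.1%, CCAAT in 19 (28.8%) against 37.5%, and TATAAA in 7 (10.6%) against 14.2%. The 66 promoters belong to different genes. The 33469 were not reduced to a single promoter per gene, nor limited to genes on the array, so the shares are not of like sets. A match is only a run of letters in this window.

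Fibril-forming collagens read lower in peptide than in heparin for most measured chains. Of 11 on the array 6 were measured, and 5 of these were higher in heparin than in peptide, 0 lower and 1 identical, with a median difference of 0.37. Of all measured genes 26.8% were higher, 43.7% lower and 29.5% identical in that comparison, with a median of 0.00. One of the 5, Col5a1, was higher by less than 0.01. Against control, 3 of the 6 were higher in heparin, 1 lower and 2 identical, beside 25.8%, 44.2% and 30.1% of all genes. Col3a1, the chain of type III collagen, read 7.90 in heparin, 7.26 in peptide and 7.73 in control. The peptide array was the low one, 0.65 under heparin and 0.47 under control. Col1a1 and Col1a2, the chains of type I collagen, also had their lowest value in peptide. Col1a1 read 6.57 in heparin, 5.95 in peptide and 6.19 in control, a 1.54-fold gap between heparin and peptide. Col1a2 read 6.36, 5.95 and 6.49 on the same arrays, so control was its highest. A second probe set of Col1a2 put the peptide 0.12 below control, where the first gave 0.54, and the second of Col1a1 was below the array median. Col5a2, a chain of the type V collagen that starts fibrils, had another order: it read 7.80 in heparin, 7.48 in peptide and 7.23 in control, so both treated arrays lay above control. Its second probe set repeated that order at 6.59, 5.75 and 5.48, and gave a larger difference between heparin and control, 1.10 beside 0.58. Col5a1, which pairs with Col5a2 in type V collagen, read 5.68 in heparin, 5.67 in peptide and 5.68 in control. Col27a1 read 7.10 on all 3 arrays.

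Type IV collagen chains, the network of basement membranes, showed hardly any difference. Col4a1 read 10.29 in heparin, 10.27 in peptide and 10.29 in control, and its second probe set put heparin 0.06 above control. Col4a5, a chain of the glomerular basement membrane, read 9.12 in heparin, 9.09 in peptide and 9.12 in control. Col4a2 read 9.34, 9.18 and 9.22 on these arrays, and its 0.16 between heparin and peptide was the widest gap of the 3 measured chains. All 3 were lower in peptide than in control, by 0.02 to 0.04. Col4a4 and Col4a6 were below the median.

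The collagens XV and XVIII lie at the border of basement membranes and carry sugar chains, and the end of collagen XVIII is released as endostatin. Col18a1 read 10.08 in heparin, 9.57 in peptide and 9.73 in control. Its second probe set went the other way for heparin, at 9.14 in heparin, 9.19 in peptide and 9.31 in control, so the direction for heparin rests on the probe set used. Col15a1 read 5.11, 5.03 and 5.05 on the 3 arrays.

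Type VI collagens, which form beaded filaments around cells, split. Col6a3 read 8.68 in heparin, 8.27 in peptide and 8.18 in control, with heparin 0.50 above control. Col6a6 went the opposite way at 6.23 in heparin, and 6.67 in both peptide and control. Col6a2 was 0.12 lower in heparin than in control, and Col6a1 read 5.73 on every array. Of the remaining collagens, 5 were measured (Col8a2, Col12a1, Col13a1, Col16a1 and Col17a1), and their values differed by 0.08 or less.

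**Figure D3:**
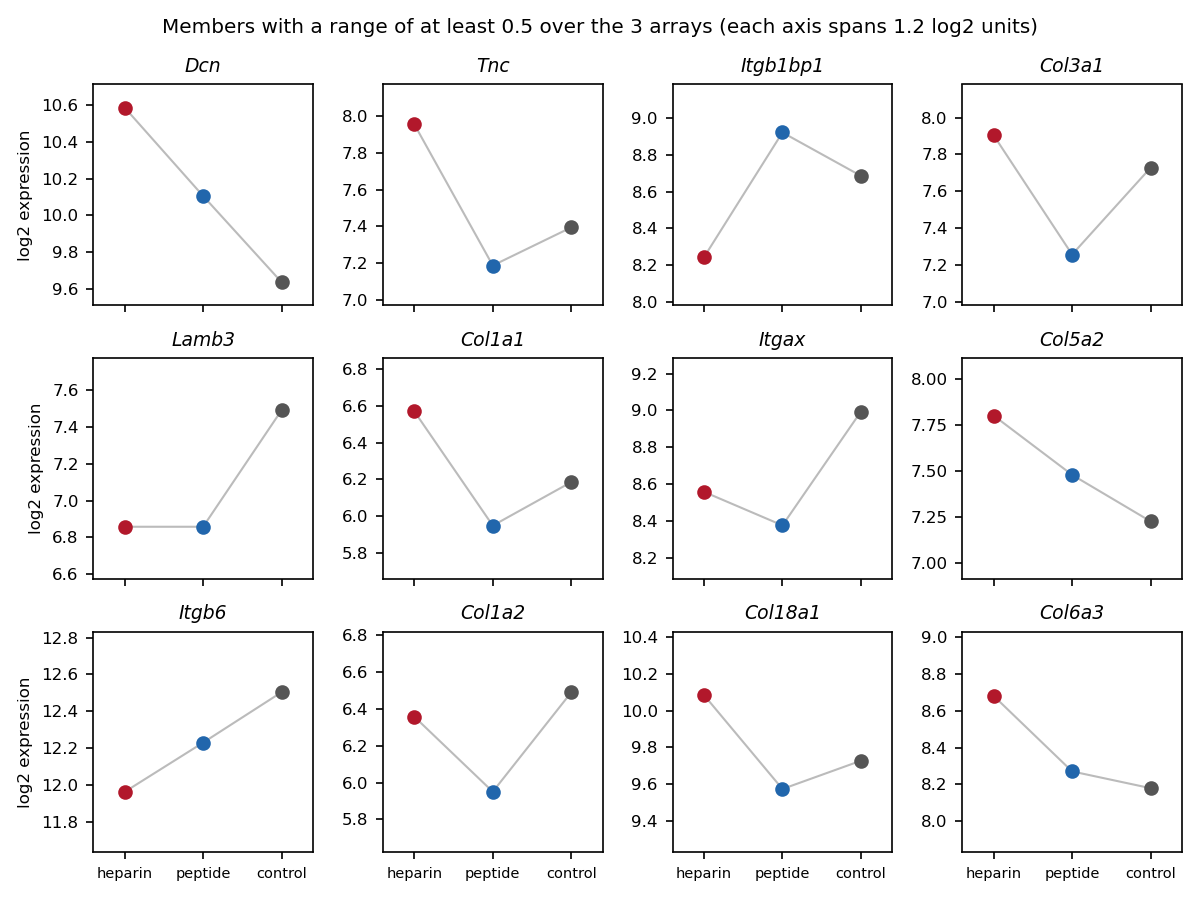
Log2 expression values on the heparin, peptide and control arrays for the 12 measured genes whose values ranged over at least 0.5, each point 1 array of pooled RNA, each panel spanning 1.2 log2 units. Dcn and Col5a2 step down from heparin to peptide to control, Tnc, Col1a1, Col3a1 and Col18a1 have peptide lowest, and Lamb3, Itgax and Itgb6 have control highest.

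Laminins are trimers of an alpha, a beta and a gamma chain. Of 10 laminin chains on the array 9 were measured, and 4 of these (Lama2, Lama3, Lama5 and Lamc3) had the same value on all 3 arrays, Lama5, of the mature glomerular basement membrane, at 8.71. Lamb3, a chain of the laminin that anchors epithelia, read 6.86 in heparin, 6.86 in peptide and 7.49 in control. Both treated arrays held the identical value, 1.55-fold below control. Lama4, the alpha chain of vessel walls, read 5.04 in heparin, 4.66 in peptide and 5.05 in control, so only the peptide array was low. Its -0.40 between peptide and control became -0.19 with 32 added before log2 and -0.20 with probe sets averaged. The other Lama4 probe set was at the lowest value of the arrays. Lamc1, the gamma chain of most laminins, read 9.37, 9.16 and 9.02 on the 3 arrays, but its second probe set was 0.29 lower in heparin than in control and identical in peptide and control. Lamb1 read 9.33 in heparin, 9.18 in peptide and 9.30 in control, and Lamb2, of the same membrane, 8.19, 8.19 and 8.10. By the probe sets used, the nidogens differed from control in opposite directions in heparin and by 0 in peptide. Nid2 read 9.52 in heparin and 9.32 in both peptide and control. Nid1 read 10.37 in heparin and 10.52 in both peptide and control, but its second probe set read 5.59 on all 3 arrays.

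Fibronectin, tenascin C, the small proteoglycans, the fibrillins and the fibulins gave 6 measured genes of 10 on the array, and in heparin all 6 stood above both control and peptide. Their median difference was 0.25 against control and 0.37 against peptide, beside 0.00 for all genes. Of all genes 25.8% were higher in heparin than in control and 26.8% higher in heparin than in peptide. The count was 6 of 6 as well with other filters, with probe sets averaged per gene, after quantile normalization and with 32 added before log2. After quantile normalization, however, the shares of all genes were larger. Then 5585 of 9236 genes were higher in heparin than in control, and 5803 of 9240 higher than in peptide. With the values as deposited, the peptide array was higher than control for 2 of the 6 genes, lower for 3 and identical for 1. Decorin, which coats collagen fibrils and binds TGF-beta, had the widest range of the 55 genes by the probe set used for each. Dcn read 10.59 in heparin, 10.11 in peptide and 9.64 in control, 1.93-fold higher in heparin and 1.38-fold higher in peptide than in control. It rests on 1 probe set. Tenascin C, made at sites of tissue remodelling, read 7.96 in heparin, 7.19 in peptide and 7.39 in control. That 1.70-fold gap between heparin and peptide was the largest positive one of the 55 genes by the probe set used for each. It is 0.77 on the log2 scale, where the second Col5a2 probe set gave 0.84. Fn1, the gene of fibronectin, read 9.91, 9.72 and 9.68 on the 3 arrays. Fbn1, whose product builds microfibrils, read 6.84 in heparin, 6.35 in peptide and 6.63 in control. Its second probe set kept heparin above control (0.29) but put peptide above control too (0.18, where the first gave -0.28). Fbln5, of elastic fibres, read 7.22 in heparin and 6.95 in both peptide and control, and the proteoglycan Bgn 9.02, 8.82 and 8.85.

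Markers of cells that make or border this matrix also differed between the pools. Of 11 fibroblast, pericyte and smooth muscle genes on the array 8 were measured. Of these, 4 were higher and 2 lower in heparin than in control (25.8% and 44.2% of all genes), with a median of 0.08. Their summed level was 11.03 in heparin, 10.76 in peptide and 10.72 in control on the log2 scale, and 0 of the 11 lay at the arrays' lowest value. Among them Pdgfra, a receptor of fibroblasts, read 9.81 in heparin, 9.25 in peptide and 9.34 in control, and Myh11, the smooth muscle myosin, 6.37, 5.74 and 5.74. The 2 genes lower in heparin than in control were Mcam, at 6.89, 6.71 and 7.06 on these arrays, and Acta2, at 7.93, 7.95 and 7.95. Podocyte genes were higher in heparin than in control for 6 of 6 and lower in peptide than in control for 6 of 6, with medians of 0.54 and -0.15, where 25.8% of all genes were higher in heparin and 28.5% lower in peptide. The summed podocyte level was 11.80 in heparin, 11.09 in peptide and 11.25 in control, with 0 of 6 at the lowest value. The 7 endothelial genes, all measured, had a median difference of 0.52 between heparin and peptide, with 4 higher, 1 lower and 2 identical in heparin. Of all genes 26.8% were higher, 43.7% lower and 29.5% identical in that comparison. The summed endothelial level was 11.96 in heparin, 11.42 in peptide and 11.62 in control, with 0 of 7 at the lowest value. Kdr, a receptor for VEGF, had that order of the arrays at 10.59 in heparin, 9.71 in peptide and 10.27 in control, while Vwf, the von Willebrand factor, had another at 6.22, 6.73 and 6.38. Peptide against control had an endothelial median of 0.00, with 1 higher, 3 lower and 3 identical (32%, 28.5% and 39.5% of all genes). The part of cell makeup in the matrix values was not tested.

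By the probe set used for each, integrin subunits had few differences, and the largest positive one against control was 0.20, that of Itgal in heparin. Another Itga6 probe set gave 0.24 in peptide. Of 21 subunits 16 were measured: 3 were higher, 7 lower and 6 identical in heparin against control, and 4 were higher, 6 lower and 6 identical in peptide against control. Of all measured genes 25.8% were higher, 44.2% lower and 30.1% identical in heparin against control, and 32% higher, 28.5% lower and 39.5% identical in peptide against control, so the share of subunits lower in heparin was near that of all genes. After quantile normalization, which breaks the ties, 10 subunits were higher and 6 lower in heparin than in control. In peptide 4 subunits were then higher and 11 lower than in control. In that setting 5585 of 9236 measured genes were higher and 3630 lower in heparin, and 3440 of 9268 higher and 5755 lower in peptide. Of the 16 measured subunits, Itgax alone was at least 1.5-fold different in any of the 3 comparisons by its highest probe set. Itgb6, which pairs with Itgav in epithelia and activates latent TGF-beta, read 11.96 in heparin, 12.23 in peptide and 12.50 in control. Control was its highest array and heparin its lowest. Among the receptors for fibronectin and collagen, Itga5 read 6.30 in heparin, 6.63 in peptide and 6.59 in control, and the collagen receptor Itga1 9.60, 9.64 and 9.79. The laminin receptor Itga3, needed in podocytes, read 9.78 in heparin, 9.85 in peptide and 9.81 in control, and the sign of its 0.04 between peptide and control turned under quantile normalization. Itgb1, the shared beta subunit of most matrix receptors, read 12.41 in heparin, 12.26 in peptide and 12.37 in control. Its second probe set had both treated arrays below control, by 0.24 in heparin and 0.38 in peptide. Itgb5 read 8.33, 8.29 and 8.33, and Itgb3 and Itgb4 had the same value on all 3 arrays.

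Itgav and Itga6 show how much the probe set matters. The Itgav probe set with the highest mean read 11.70 on all 3 arrays. Its other probe sets were set apart from control by -0.48 and -0.51 in heparin, and by 0.11 and 0.01 in peptide. Itga6, a laminin receptor subunit, read 13.00 in heparin, 13.00 in peptide and 13.02 in control with its highest probe set. Another of its probe sets read 8.28 in heparin, 9.18 in peptide and 8.94 in control, and a further one 10.98, 11.19 and 11.09, both lowest in heparin. In all, 13 genes had more than 1 measured probe set. In heparin against control these pointed the same way for 5, opposite ways for 3 (Col18a1, Itgb1 and Lamc1), and included a difference of exactly 0 for 5. In peptide against control the counts were 5, 2 (Fbn1 and Itga6) and 6.

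**Figure D4:**
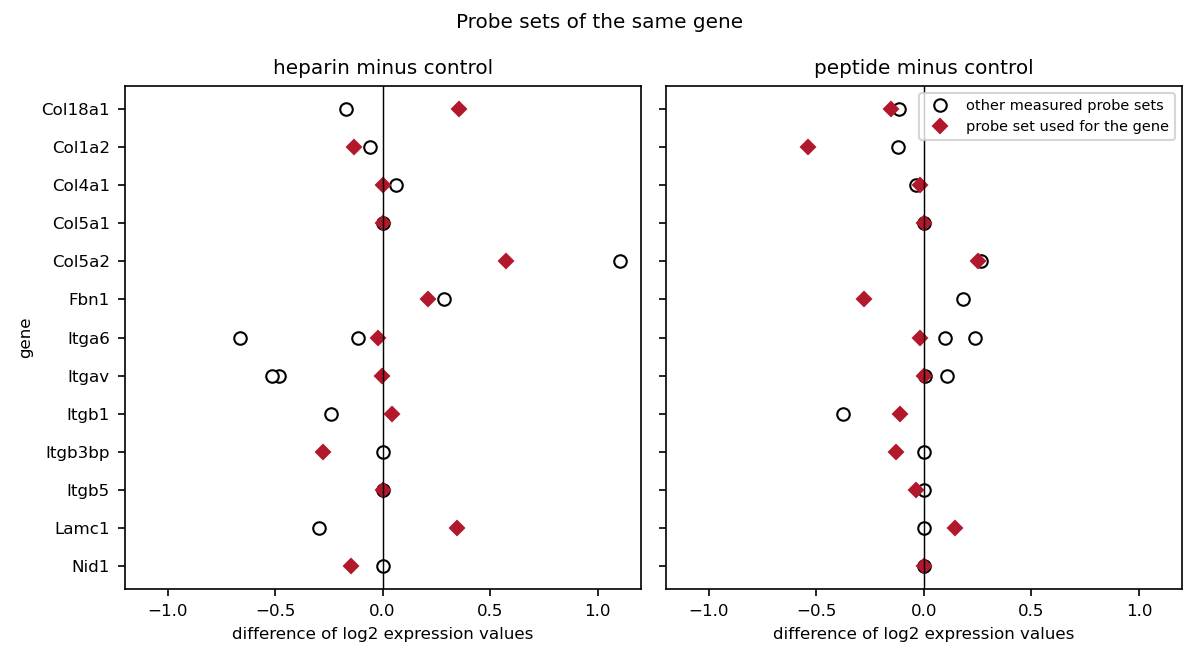
Differences of log2 expression values for the 13 genes with more than 1 measured probe set, heparin minus control on the left and peptide minus control on the right. Diamonds mark the probe set used for the gene and open circles the others: both probe sets of Col5a2 lie right of 0 in heparin, those of Col18a1 and Lamc1 lie on opposite sides, and the other probe sets of Itgav lie near -0.5 in heparin.

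Leukocyte integrins had no common direction. Itgax, an alpha subunit of macrophages and dendritic cells, read 8.56 in heparin, 8.37 in peptide and 8.99 in control, 1.35-fold and 1.54-fold below control. Its partner Itgb2 read 7.58 in heparin and 7.44 in both peptide and control, and Itgal, the subunit that binds ICAM on endothelium, 5.58, 5.40 and 5.38. Itgam, of neutrophils and macrophages, read 4.65 in heparin, 4.70 in peptide and 4.65 in control, and Itgae and Itgb7 had 1 value each on all arrays. Of 10 measured leukocyte genes, 4 were higher and 4 lower in heparin than in control (25.8% and 44.2% of all genes). In peptide 6 were higher and 1 lower than in control (32% and 28.5% of all genes). The summed leukocyte level was 14.84 in heparin, 14.81 in peptide and 14.64 in control, with 1 of 13 genes at the lowest value on all arrays. Control was the lowest array for this sum and the highest for Itgax, and heparin was above peptide in both. The sum gives most weight to its highest genes: on the control array Lyz2 read 13.46, S100a9 12.92 and S100a8 12.13. Other leukocyte genes had other orders. Aif1 read 7.23 in heparin, 8.13 in peptide and 7.75 in control, and Cd68 7.55, 6.99 and 7.07. The part of leukocyte number in the Itgax values was not tested.

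The integrin-binding protein Itgb1bp1 attaches to the tail of the Itgb1 subunit and holds the receptor inactive. By the probe set used for each gene, it had the largest negative difference between the treatments. Itgb1bp1 read 8.24 in heparin, 8.92 in peptide and 8.69 in control, 1.60-fold lower in heparin than in peptide. An Itga6 probe set that was not the one used gave -0.90 in that comparison. The other Itgb1bp1 probe set was at the lowest value of the arrays. Itgb3bp, better known as a centromere protein, read 6.50 in heparin, 6.64 in peptide and 6.77 in control, while its second probe set had the same value on all 3.

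Genes that work on this matrix or beneath its receptors were described from lists, without a test. Each gene of these and the cell type lists was read by 1 probe set. Some had others (Vcl and Cav1 have 3 each), and those were not compared. The counts at 1.5-fold are to be read beside the shares of all measured genes. These were 3.04% higher and 3.37% lower in heparin against control, 2.11% and 0.917% in peptide against control, and 1.62% and 4.57% in heparin against peptide. Of 28 collagen-processing genes on the array 21 were measured, and 0 were at least 1.5-fold different in heparin against control, 1 was at least 1.5-fold lower in peptide against control, and 2 were at least 1.5-fold higher in heparin against peptide. The 2 were Pxdn, the peroxidase that crosslinks type IV collagen, and the lysyl oxidase Loxl1. Pxdn read 6.93 in heparin, 5.79 in peptide and 6.58 in control, and Loxl1 8.22, 7.58 and 7.68. Loxl2 read 6.96 in heparin, 6.43 in peptide and 6.39 in control. The collagen chaperone Serpinh1 was 0.35 lower in peptide than in control.

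Other matrix proteins gave 22 measured genes of 48. In heparin against control 2 were at least 1.5-fold higher and 1 lower, beside 3.04% and 3.37% of all genes. In peptide against control 0 were either, beside 2.11% and 0.917%. In heparin against peptide 3 were higher and 1 lower, beside 1.62% and 4.57%. Vcan, a large proteoglycan of loose matrix, read 9.24 in heparin, 8.77 in peptide and 8.56 in control. Emilin2 read 7.03, 6.20 and 6.43 on the 3 arrays, and Ogn, a small proteoglycan, was 0.87 higher in heparin than in peptide. Matn1, a cartilage matrix protein, went the other way at 6.01 in heparin, 7.38 in peptide and 7.32 in control.

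Integrin adaptors and focal adhesion proteins gave 41 measured genes of 44. With each treatment 2 were at least 1.5-fold lower than in control and 0 higher, and in both cases these were Vcl and Cav1. Of all genes 3.37% were that much lower in heparin and 0.917% in peptide. Vinculin, which ties integrins to actin, read 10.27 in heparin, 10.46 in peptide and 11.17 in control. Cav1, the coat protein of caveolae, read 8.66 in heparin, 8.68 in peptide and 9.32 in control. Between the treatments 1 of 41 was at least 1.5-fold lower in heparin and 0 higher, beside 4.57% and 1.62% of all genes. That gene was Git1, a focal adhesion adaptor, which read 7.87 in heparin, 8.59 in peptide and 8.32 in control. Other matrix receptors had 0 of 19 measured genes at 1.5-fold in either treatment against control. In heparin against peptide 1 of 20 was higher and 0 lower, beside 1.62% and 4.57% of all genes. That gene was Sgcb, a sarcoglycan, which read 5.42 in heparin, 4.69 in peptide and 4.13 in control. Its control value lay just under the array median of 4.14, so Sgcb was not counted in the comparisons against control. The collagen receptor Ddr2 read 6.81 in heparin, 6.64 in peptide and 6.29 in control. Platelets also carry vinculin and beta 3 integrin, and 3 of 3 measured platelet genes were lower than in control with both treatments. Of all genes 44.2% were lower in heparin and 28.5% lower in peptide. The platelet genes had medians of -0.80 in heparin and -0.90 in peptide, and a summed level of 9.66 in heparin, 9.60 in peptide and 10.47 in control, with 1 of 6 at the lowest value, while Itgb3 read 6.02 on every array. The part of platelets in the vinculin values was not tested.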

How the data were processed

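Total RNA of 3 kidneys per group was pooled by the authors, and labelled cRNA from 6 µg was hybridised to Affymetrix rat arrays, 1 array per group, per the labels' protocols. The authors deposited 1 log2 value for each probe set and array; GCRMA is named, without version or settings, per the submitters' processing notes. They were used as deposited. Of 31099 probe sets, 20832 had 1 symbol in the platform annotation, 436 several and 9831 none (not named here). Where a gene had several, the one with the largest average over the arrays was used. Log2 values were subtracted between arrays in 3 comparisons, and genes past 1.5-fold were counted, with Python 3.11.15 and pandas 2.3.3. The counting was checked on simulated data. Arrays have no read depth, and 1 array per group limits the precision, so no p-value or standard error is given.

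All 88 genes could be named; the 10 largest differences in each direction against control, the 5 between treatments, up to 3 of each kind and a fixed set were given with values, and up to 4 genes of each list. Of 230 list entries 202 matched by symbol and 28 were not analysed here. The genes, lists and thresholds were chosen with earlier results of these data known. Alternatives were other filters, the mean of or each probe set, quantile normalization, median centring, 32 added before log2, 2-fold, and the genes without binding proteins; a threshold of 0.2 was added after seeing the data.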

Additional observations from a re-analysis of the deposited data

How the results depend on the processing

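No paired analysis was possible because each group has 1 array of pooled RNA, and no replicate could be left out. The counts at 1.5-fold were 1 higher and 1 lower (heparin against control), 0 and 2 (peptide against control), and 3 and 1 (heparin against peptide). Filters at the 40th or 60th percentile, no filter, and median centring left all of these counts as they were. With probe sets averaged per gene, heparin against control had 2 higher, and heparin against peptide 2 higher and 0 lower, with Col1a1 at 0.31 in place of 0.62. With each probe set by itself, heparin against control had 2 higher and 2 lower, and heparin against peptide 4 higher and 3 lower. Quantile normalization gave 3 higher and 0 lower in heparin against control. With 32 added before log2, there were 0 lower in heparin against control, 0 lower in peptide against control, and 1 higher in heparin against peptide. At 2-fold all counts were 0 with 1 probe set per gene. Without the binding proteins, heparin against peptide had 0 lower. At 0.2 on the log2 scale, 12 were higher and 7 lower in heparin against control (all genes 10.2% and 19%), 3 and 9 in peptide against control (11.4% and 7.5%), and 13 and 4 in heparin against peptide (10% and 21.4%). The cause of these shifts was not tested, except that a wider threshold or fewer genes changes a count by construction. The median over the measured genes of the whole group moved by less than 0.1 in each setting run for it. Among its families, the median of the collagens in heparin against peptide was 0.16 with the filter at the 60th percentile, against 0.01 as reported. The cell type and pathway lists were not recomputed. Of 50 differences of named genes, recomputed with the mean of probe sets, quantile normalization and 32 added before log2, 124 of 150 values stayed within 0.1, 26 moved by more, 0 of those past 1.5-fold changed sign, and 1 smaller difference did (Itga3, peptide against control).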
